A study of Rattus norvegicus with 20 samples.

Results

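The comparison described here sets rat β-cells treated with siRNA against Piezo1 (si-P1) beside cells of the same line that were left untransfected. It rests on 8 of the 20 mRNA libraries of the series, 4 si-P1 and 4 untransfected. Genes were tested when at least 10 of the 20 libraries held a value above 0 for them, which kept 15802 of the 23487 genes listed. For each gene the place of the mean of cells given a non-targeting siRNA (si-Ctrl, replicates 1, 2 and 4) between these groups was noted as well. All libraries came from INS-1 832/13, a rat insulinoma line that secretes insulin in response to glucose and carries a human proinsulin transgene. The series also held cells with siRNA against Piezo2 (si-P2) or against both genes (si-P1+2). The si-P1 cells received a commercial pool of siRNAs against Piezo1 at 25 nM with a lipid reagent and the same again 48 h later, and were collected 48 h after that. The untransfected cells grew in the same medium with 11.1 mM glucose and are described only as untransfected, so the siRNA duplexes, the lipid reagent and the loss of Piezo1 cannot be told apart in a difference between these 2 groups. The siRNA came as 1 pool per gene and the line is a single tumour-derived line. Nothing in the sources used here says that replicates came from separate cultures, so the p-values measure only the scatter between libraries, part or all of which may be technical.

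Piezo1 encodes a very large ion channel of the plasma membrane that opens when the membrane is stretched and lets calcium and other cations enter. In β-cells, which swell as they take up and burn glucose, calcium entry triggers the fusion of insulin granules with the plasma membrane. Transfection itself is a stimulus: cells carry sensors for double-stranded RNA, and an activated sensor turns on interferon-stimulated genes, among them those that load peptides onto MHC class I molecules. A non-targeting siRNA is meant to carry that part of a response, and cells that were never transfected are meant to lack it.

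Whole reads per library were recovered from the normalized counts and ranged from 16679934 to 46579053 in the si-P1 libraries and from 18536093 to 52066167 in the untransfected libraries. The β-cell label was borne out by the markers: all 12 β-cell markers were detected in all 8 libraries, and they summed to between 218701 and 286587 normalized counts in si-P1 libraries and between 148330 and 193558 in untransfected libraries, most of it Ins1 and Iapp. The 4 acinar markers summed to 0 in si-P1 libraries and to at most 1.698 in untransfected ones, with Prss1, Cpa1 and Pnlip at 0 in all 8. The 3 leukocyte markers summed to at most 24.8 and 17.0 in these groups, and the 2 endothelial markers in the table to at most 26.7 and 13.4. The 5 fibroblast markers summed to between 265 and 282 in si-P1 libraries and between 103 and 177 in untransfected libraries, almost all of it Pdgfra, while Col1a1, Col1a2, Dcn and Lum stayed under 10. The 3 ductal markers summed to between 285 and 381 against between 341 and 533, mostly Sox9, and the 6 markers of other endocrine cells to between 1531 and 2442 against between 1233 and 2246, mostly Gcg. In bulk libraries fewer cells of a type and less RNA per cell cannot be told apart. On the first principal component of all 20 libraries si-Ctrl replicate 3 stood at 66.3, with the others between -16.7 and 13.9. It belongs to neither group compared, so no fold change depends on it, but it widens the spread that all 20 libraries share in the test. It was left out of the si-Ctrl mean.

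Piezo1 was the targeted gene and its transcript was lower in all 4 treated libraries. Its values were 130.0, 132, 105 and 132 normalized counts in the si-P1 libraries, against 336, 331, 300.0 and 271 in the untransfected ones, and the groups did not overlap (log2 fold change -1.31, SE 0.11, limma adjusted p = 4.0e-07). The remaining level was 0.404 of that in untransfected cells. The si-Ctrl libraries had 333, 322 and 304, at the level of untransfected cells. Piezo2, the sister channel best known from touch-sensing neurons, was near the floor in both groups, with 12.7, 14.2, 15.2 and 10.8 normalized counts in si-P1 cells and 13.6, 16.3, 6.72 and 9.25 in untransfected cells (log2 fold change 0.25, SE 0.36, limma adjusted p = 0.70). Its groups overlapped, and at this level only a large change could have been detected.

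Treated cells differed from untransfected cells across a wide part of the transcriptome, mostly by small amounts. Of the 15802 genes tested, 2857 (18.1%) passed an adjusted p of 0.05, 1645 of them higher (10.4%) and 1212 lower (7.67%) in si-P1 cells. The median absolute log2 fold change of these genes was 0.43. A change of at least 1 on the log2 scale was seen in 265 genes that rose and 86 that fell, and one of at least 2 in 42 and 8. The values of the groups did not overlap in 2642 of the 2857 genes called, against 28.8% of all genes tested. Without si-Ctrl replicate 3 in the fit, 4921 genes passed (31.1%), among them all 2857 genes. The main fit has no term for the replicate number, and adding one as a block gave 4281 genes. The rises reached further than the falls, as the plot of fold change against level shows.

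**Figure D1:**
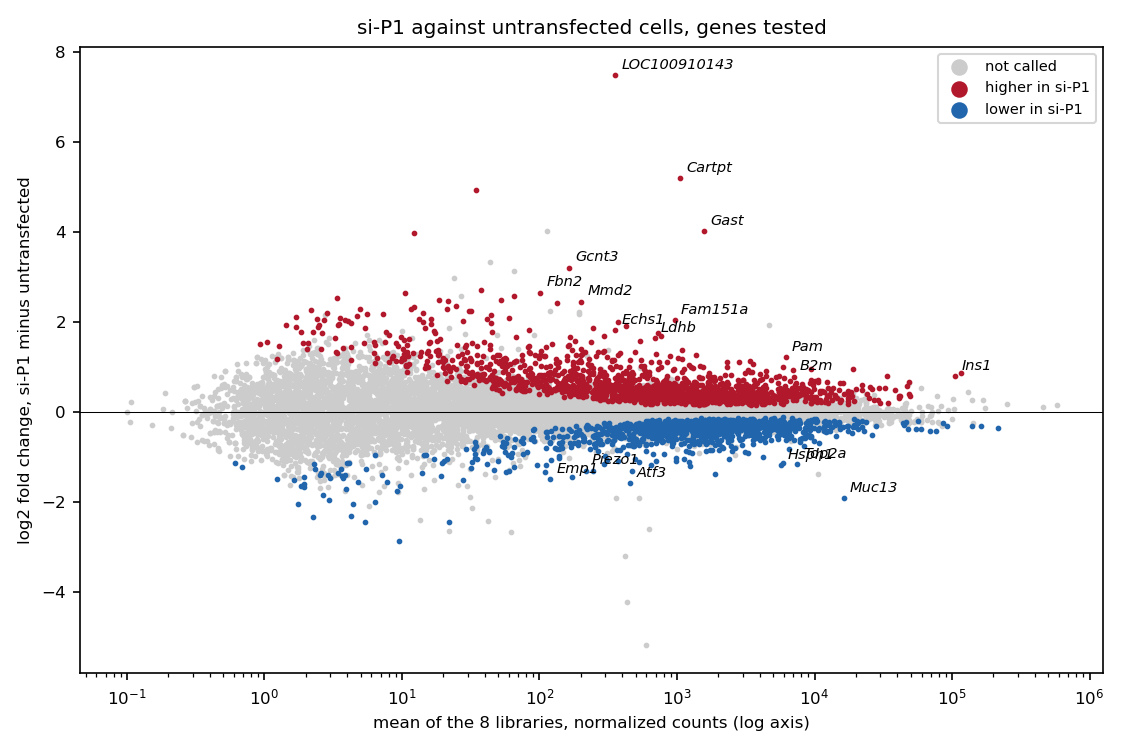
Log2 fold change of si-P1 minus untransfected cells (y axis) against the mean of the 8 libraries in normalized counts (x axis, log scale) for the genes tested. Red points were called higher in si-P1 cells, blue points lower and grey points were not called; Cartpt (5.20) and Gast (4.02) stand above the cloud and Muc13 (-1.93) is the abundant gene that fell most.

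Where did cells with a non-targeting siRNA lie for these genes? A position of 0 puts the si-Ctrl mean on the untransfected mean and a position of 1 puts it on the si-P1 mean, on the log2 scale. Among the 2857 genes called, 1707 (59.7%) had the si-Ctrl mean near the untransfected mean (-0.25 to 0.25) and 911 (31.9%) had it between 0.25 and 0.75. In 69 genes (2.42%) it lay near the si-P1 mean (within 0.25 of 1), in 4 past it, and in 166 (5.81%) it lay below -0.25, beyond the untransfected mean on the far side from si-P1. The median position was 0.15, with 0.18 for the genes that rose and 0.11 for those that fell. Counted strictly, the si-Ctrl mean lay between the groups in 2089 of the called genes (73.1%) and in 5131 of the 12944 genes not called for which a position exists (39.6%). The untransfected mean is part of both the call and the position, so these shares are descriptions. Fitted without si-Ctrl replicate 3, si-P1 against si-Ctrl gave 3820 genes (24.2%) and si-Ctrl against untransfected cells gave 33 (0.209%). These 3 comparisons share libraries.

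**Figure D2:**
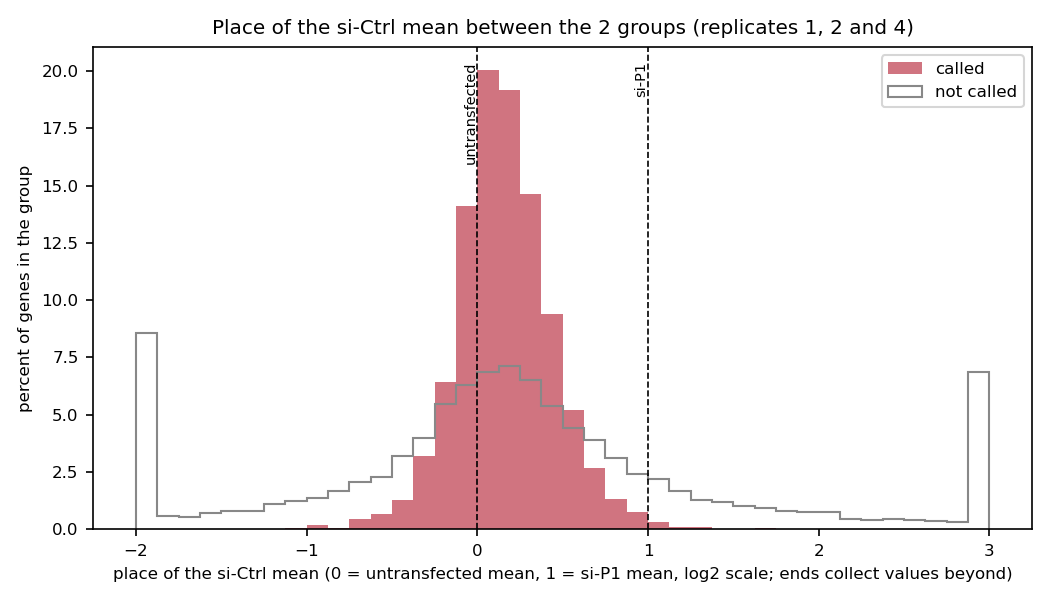
Place of the si-Ctrl mean (replicates 1, 2 and 4) on a scale where 0 is the untransfected mean and 1 the si-P1 mean (x axis, log2 scale), as a percentage of genes in each set (y axis). Called genes (filled red) gather near 0 with a median of 0.15, and genes that were not called (grey line) spread widely to both sides.

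Among the genes that rose most were precursors of secreted peptides. Cartpt, the precursor of the CART neuropeptide that islets also make, had 2173, 905, 3272 and 1818 normalized counts with si-P1, against 86.6, 39.2, 134 and 12.6 in untransfected cells (log2 fold change 5.20, SE 0.65, limma adjusted p = 2.2e-05). Gast, the precursor of gastrin, a stomach hormone that the pancreas makes in fetal life, had 3781, 1376, 4468 and 2193 normalized counts in the si-P1 libraries, against 180.0, 135, 237 and 125 in the untransfected ones (log2 fold change 4.02, SE 0.35, limma adjusted p = 4.8e-07). In both genes every treated library exceeded every untransfected library several-fold, and replicates 1 and 3 were the higher ones within each group. Their si-Ctrl values stayed low, at 174, 48.1 and 39.1 for Cartpt and 267, 172 and 178 for Gast, close to untransfected cells (positions 0.09 and 0.07). The si-P1+2 cells, which received the same siRNA pool with that against Piezo2, averaged 1215 and 1909 and the si-P2 cells 272 and 471.

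Other large rises were in matrix, growth factor and membrane genes. Fbn2, a fibrillin of elastic fibres, had 190.3, 126, 244 and 139 normalized counts in si-P1 cells and 27.2, 23.5, 39.2 and 18.5 in untransfected cells (log2 fold change 2.65, SE 0.32, limma adjusted p = 1.3e-05). Ptn, the secreted growth factor pleiotrophin, had 548, 498, 759.9 and 896 normalized counts with si-P1, against 156, 174, 187 and 178 in untransfected cells (log2 fold change 1.92, SE 0.17, limma adjusted p = 7.1e-07). Fam151a had 1911, 1285, 1645 and 1361 normalized counts in the si-P1 libraries, against 426, 367, 360.4 and 345 in the untransfected ones (log2 fold change 2.03, SE 0.14, limma adjusted p = 7.4e-08). None of these 3 genes overlapped between groups, and their si-Ctrl means of 38.6, 183 and 338 lay near the untransfected level. Spon1, a matrix protein of the nervous system, rose by 1.87 on the log2 scale with its si-Ctrl mean also near untransfected cells. Mmd2, a seven-pass membrane protein of the progestin receptor family, rose by 2.45, and Slc17a3, a transporter of organic anions, rose by 2.42 with a position of 0.39.

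The largest fitted rise rests on a transcript that is listed at 0 in most untransfected libraries. LOC100910143 had 278, 929.8, 999.8 and 509 normalized counts in si-P1 cells and 0, 131, 0 and 0 in untransfected cells (log2 fold change 7.48, SE 1.61, limma adjusted p = 0.0029). Only untransfected replicate 2 held it, and its si-Ctrl libraries had 272, 588 and 418, near the si-P1 level (position 0.92). A fitted change of this kind depends on the pseudocount. Echs1, which encodes the mitochondrial enoyl-CoA hydratase of fatty acid oxidation, was also uneven among untransfected libraries but was at 0 in none of them. It had 545, 674, 417 and 479 normalized counts with si-P1, against 102, 273, 57.1 and 295 in untransfected cells. Its groups did not overlap (log2 fold change 1.81, SE 0.40, limma adjusted p = 0.0036), while the si-Ctrl values of 702, 285 and 307 spanned both.

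**Figure D3:**
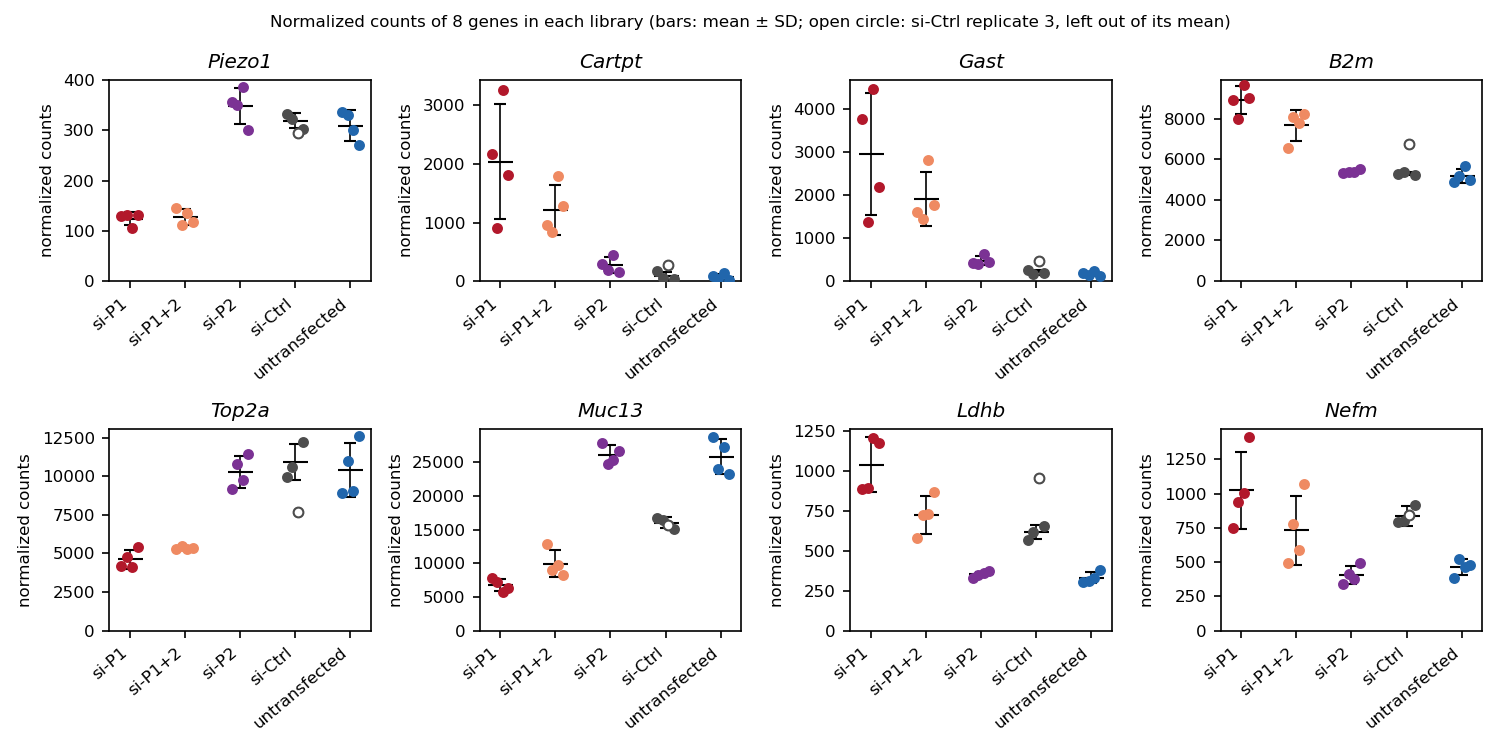
Normalized counts (y axes, from 0) of 8 genes in every library, by group, with the mean and SD as black marks; the open circle is si-Ctrl replicate 3, which its mean leaves out. Piezo1, Top2a and Muc13 are lower and Cartpt, Gast, B2m, Ldhb and Nefm higher in all 4 si-P1 libraries than in all 4 untransfected libraries, and only Muc13, Ldhb and Nefm have a si-Ctrl mean well away from the untransfected mean.

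Among the genes that fell, Muc13 changed most at high abundance. This transmembrane mucin of epithelia had 7837, 7283, 5749 and 6331 normalized counts in the si-P1 libraries, against 28719, 23962, 27239 and 23269.6 in the untransfected ones (log2 fold change -1.93, SE 0.11, limma adjusted p = 1.2e-08), with no overlap. Its si-Ctrl libraries had 16651, 16406 and 15044, between the groups and outside both (position 0.35), whereas si-P2 libraries averaged 26148. Atf3, a transcription factor induced by many stresses, had 109, 382, 168 and 310.2 normalized counts in si-P1 cells and 439.7, 792, 599.9 and 867 in untransfected cells (log2 fold change -1.59, SE 0.39, limma adjusted p = 0.0068). Its si-P1 replicates 1 and 3 were far below replicates 2 and 4, and the highest si-P1 value still lay under the lowest untransfected one. Emp1, an epithelial membrane protein, had 65.4, 49.8, 78.1 and 50.5 normalized counts with si-P1, against 165, 149, 271 and 129.6 in untransfected cells (log2 fold change -1.50, SE 0.22, limma adjusted p = 0.00013).

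Several further falls concern chaperones, cell contact and secreted signals. Hsph1, a large heat shock protein that acts with HSP70, had 3137, 4092, 3228 and 3601 normalized counts in the si-P1 libraries, against 7484, 7871, 8805 and 7596 in the untransfected ones (log2 fold change -1.18, SE 0.10, limma adjusted p = 2.8e-07). Eif4ebp2, a repressor of cap-dependent translation, had 1274, 1164, 834 and 966 normalized counts in si-P1 cells and 2672, 2918, 2459 and 2895 in untransfected cells (log2 fold change -1.38, SE 0.20, limma adjusted p = 7.8e-05). Both were at the untransfected level in the si-Ctrl mean, 7391 and 2615, although si-Ctrl replicate 3 alone had 1176 of Eif4ebp2, inside the si-P1 range. Cdh4, which encodes R-cadherin, had 868, 649, 802 and 698 normalized counts with si-P1, against 1861, 1799.9, 1683 and 1567 in untransfected cells (log2 fold change -1.20, SE 0.22, limma adjusted p = 0.00067), and here too si-Ctrl replicate 3 reached a si-P1-like 716. Prok2, a secreted prokineticin, and Kitlg, the ligand of the KIT receptor, fell by 1.33 and 1.18 on the log2 scale. Trim80, Snx31, a sorting nexin, and Islr2, a membrane protein of neurons, fell by 1.45, 1.31 and 1.18. The si-Ctrl means of all 5 were near untransfected cells.

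In a smaller set of genes the mean of cells with the non-targeting siRNA also lay away from the untransfected mean. Ldhb, the heart-type lactate dehydrogenase subunit, had 887, 896, 1209 and 1176 normalized counts in the si-P1 libraries, against 302, 311, 332 and 383 in the untransfected ones (log2 fold change 1.64, SE 0.15, limma adjusted p = 7.1e-07). Its si-Ctrl libraries had 572, 621 and 659, above every untransfected and below every si-P1 value, and the 2 steps were 0.74 (limma adjusted p = 0.00031) for si-P1 against si-Ctrl and 0.90 (SE 0.13, limma adjusted p = 0.0028) for si-Ctrl against untransfected on the log2 scale. The si-P2 cells, also transfected, averaged 353 and so stood at the untransfected level. Gcnt3, an enzyme that branches the sugar chains of mucins, had 293, 249, 347 and 298 normalized counts in si-P1 cells and 18.7, 26.6, 38.1 and 48.8 in untransfected cells (log2 fold change 3.21, SE 0.25, limma adjusted p = 1.4e-07), with si-Ctrl at 86.1, 62.8 and 89.9. Its step between si-Ctrl and untransfected cells was 1.31 (SE 0.25, limma adjusted p = 0.029). Tfrc, the transferrin receptor that takes up iron, had 31480.4, 27480.3, 29729.6 and 30665 normalized counts with si-P1, against 20486, 20333, 20322 and 20783 in untransfected cells (log2 fold change 0.54, SE 0.10, limma adjusted p = 0.00070), and its si-Ctrl mean of 24709 lay midway (position 0.50).

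Of the 2089 called genes whose si-Ctrl mean lay between the groups, most had no called step between si-Ctrl and untransfected cells. That comparison called only 33 of all genes tested. Examples without such a called step follow. Nefm, the medium neurofilament subunit, had 748, 935, 1002 and 1413 normalized counts in the si-P1 libraries, against 387, 520.5, 462 and 482 in the untransfected ones (log2 fold change 1.11, SE 0.20, limma adjusted p = 0.00068). Its si-Ctrl libraries had 789.9, 801 and 916, and si-P1 differed from si-Ctrl by only 0.26 (limma adjusted p = 0.43). Nefl, the light subunit, had 639.7, 434, 775 and 550.4 normalized counts in si-P1 cells and 166, 136, 194 and 105 in untransfected cells (log2 fold change 1.99, SE 0.27, limma adjusted p = 4.2e-05), and its si-Ctrl mean of 242 lay nearer to untransfected cells (position 0.32). Car8, a carbonic anhydrase-related protein of Purkinje cells, had 1068, 892, 1272 and 1373 normalized counts with si-P1, against 238, 452, 287 and 516 in untransfected cells (log2 fold change 1.68, SE 0.22, limma adjusted p = 2.9e-05) and a position of 0.57. In si-P2 cells Nefm, Nefl and Car8 averaged 405, 149.8 and 321, which differed from untransfected cells by -0.20 (limma adjusted p = 0.64), -0.03 (limma adjusted p = 0.97) and -0.16 (limma adjusted p = 0.73). The si-Ctrl steps of Nefm, Nefl and Car8 were 0.86 (SE 0.22, limma adjusted p = 0.13), 0.63 (SE 0.28, limma adjusted p = 0.59) and 0.95 (SE 0.23, limma adjusted p = 0.11), so none of these steps was called. Trim39, a ubiquitin ligase whose gene lies in the MHC region, had 506, 441, 467 and 544 normalized counts in the si-P1 libraries, against 681, 586, 642 and 569 in the untransfected ones (log2 fold change -0.34, SE 0.09, limma adjusted p = 0.0089), with its si-Ctrl mean of 513 near si-P1.

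In the 4 genes whose si-Ctrl mean lay past the si-P1 mean the changes were small. Rab40b, a small GTPase, had 2119, 2247, 2361 and 2433 normalized counts in si-P1 cells and 1689, 1854, 1851 and 2030.1 in untransfected cells (log2 fold change 0.30, SE 0.07, limma adjusted p = 0.0029) and 2433, 2335 and 2507 in si-Ctrl. Crat, carnitine acetyltransferase, and Gpr146, an orphan receptor, rose by 0.18 and 0.16, and both lost the call when most single libraries were left out (limma adjusted p up to 0.119 and 0.131). E2f2, a factor of the cell cycle, fell by 0.24 with a position of 1.37 and overlapping groups. At the other end, si-Ctrl moved away from si-P1. Pygl, the liver-type glycogen phosphorylase, had 1015, 1006, 969 and 1007 normalized counts with si-P1, against 1416, 1554, 1499 and 1816 in untransfected cells (log2 fold change -0.65, SE 0.10, limma adjusted p = 0.00025), while its si-Ctrl mean was 1938, above untransfected cells. Dglucy, the mitochondrial D-glutamate cyclase, had 100.3, 55.1, 99.0 and 116 normalized counts in the si-P1 libraries, against 177, 149.7, 212 and 199 in the untransfected ones (log2 fold change -1.02, SE 0.24, limma adjusted p = 0.0054) and a si-Ctrl mean of 254. Against si-Ctrl, the change in si-P1 cells was -0.95 (limma adjusted p = 5.3e-06) for Pygl and -1.47 (limma adjusted p = 0.00041) for Dglucy.

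MHC class I genes formed the list with the largest share of members that rose. Class I molecules sit on nearly all cells and show peptides from the cytosol to T cells; the immunoproteasome cuts these peptides, TAP pumps them into the endoplasmic reticulum (ER), and tapasin helps to load them. Of 20 members tested, 15 rose and 0 fell, with a median log2 fold change of 0.59, against 10.4% of genes called higher and a median of -0.0014 over all genes tested. The median of si-Ctrl against untransfected cells over the same members was -0.05. B2m, the light chain of every class I molecule, had 8925, 8002, 9657 and 9023 normalized counts in si-P1 cells and 4886, 5162, 5686 and 4964 in untransfected cells (log2 fold change 0.78, SE 0.08, limma adjusted p = 4.6e-06). The lowest si-P1 library lay well above the highest untransfected one, and si-Ctrl had 5292, 5384 and 5217. RT1-CE5, a rat class I heavy chain, had 727, 667, 823 and 731 normalized counts with si-P1, against 389, 359.9, 351 and 352 in untransfected cells (log2 fold change 1.02, SE 0.11, limma adjusted p = 4.3e-06). Other heavy chains that rose were RT1-M3-1 (0.89), RT1-A2 (0.92), RT1-T24-4 (0.74) and RT1-A1 (0.56). These genes are near-identical copies, so how reads were split among them is uncertain, and RT1-A2 lost its call without any one of 5 libraries.

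Several genes of peptide cutting and loading rose with them. Tapbp, which encodes tapasin, had 4262, 4339, 5222 and 4286 normalized counts in the si-P1 libraries, against 2492, 2492, 2682 and 2082 in the untransfected ones (log2 fold change 0.89, SE 0.11, limma adjusted p = 1.4e-05). Tapbpl, the tapasin-related peptide editor, had 1419.6, 1362, 1638 and 1494 normalized counts in si-P1 cells and 809.9, 728, 803 and 719 in untransfected cells (log2 fold change 0.95, SE 0.08, limma adjusted p = 2.8e-07). Psmb10, an immunoproteasome subunit, had 911, 1099, 1190.2 and 1090.1 normalized counts with si-P1, against 548, 603, 597 and 703 in untransfected cells (log2 fold change 0.81, SE 0.15, limma adjusted p = 0.00071). In all 3 the groups were clearly apart and si-Ctrl stayed at the untransfected level, with means of 2207, 777 and 597. Psmb9, another immunoproteasome subunit, rose by 0.63, Tap1, one chain of the peptide pump, by 0.37 (its other chain, Tap2, averaged 4.95 normalized counts in si-P1 and 9.82 in untransfected cells and was not called), Erap1, which trims peptides in the ER, by 0.53 and Nlrc5, the transcriptional activator of class I genes, by 0.66. The third immunoproteasome subunit, Psmb8, had 106, 99.6, 112 and 92.9 normalized counts in the si-P1 libraries, against 104, 65.2, 80.6 and 77.4 in the untransfected ones and was not called (log2 fold change 0.34, SE 0.37, limma adjusted p = 0.58).

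Interferon-stimulated genes mostly moved in the same direction. Of 49 tested, 22 rose and 1 fell (46.9% called, against 18.1% of all genes). The median was 0.34 in si-P1 and -0.0094 in si-Ctrl against untransfected cells. Parp14, an ADP-ribosyltransferase, had 464, 396, 573 and 423 normalized counts in si-P1 cells and 209, 196, 217 and 200.2 in untransfected cells (log2 fold change 1.16, SE 0.12, limma adjusted p = 3.9e-06), and its si-Ctrl values of 172, 180.5 and 144 lay below every untransfected value. Irgm, an interferon-induced GTPase, had 186, 169, 215 and 194 normalized counts with si-P1, against 74.7, 86.3, 101 and 91.7 in untransfected cells (log2 fold change 1.11, SE 0.16, limma adjusted p = 8.8e-05). Ifi44l, a protein of the antiviral response, had 123, 114, 162 and 124 normalized counts in the si-P1 libraries, against 52.6, 50.1, 45.9 and 67.3 in the untransfected ones (log2 fold change 1.26, SE 0.16, limma adjusted p = 2.7e-05). These 3 were of modest abundance, as were most members that rose: Usp18, which removes ISG15 from proteins and restrains interferon signalling, averaged 104 ± 24.7 in si-P1 and 31.5 ± 3.80 in untransfected cells, and Ifi47, an interferon-induced GTPase, 133 ± 27.6 and 36.5 ± 6.29 (SD, n = 4 each). Isg15, the ubiquitin-like modifier itself, stayed below 10 normalized counts in all 8 libraries. Oas1a, a synthetase that answers double-stranded RNA, had 76.5, 107, 109 and 128 normalized counts in si-P1 cells and 40.7, 51.9, 57.1 and 51.3 in untransfected cells (log2 fold change 1.03, SE 0.19, limma adjusted p = 0.00066).

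Several sensors and central signalling genes of this pathway were not called. Irf1, a transcription factor, was at 0.15 (limma adjusted p = 0.19), and the RNA sensors Ddx58 and Ifih1 were at 0.25 and 0.20 (limma adjusted p = 0.47 and 0.38). Eif2ak2, the kinase PKR that double-stranded RNA activates, had 1249.7, 1580.4, 1266 and 1523 normalized counts with si-P1, against 1577, 1830.1, 1634 and 1727 in untransfected cells (log2 fold change -0.27, SE 0.10, limma adjusted p = 0.058), though its lower level passed the threshold without si-Ctrl replicate 3. The 1 member that fell was Ifnar2, a chain of the type I interferon receptor, at -0.40 (limma adjusted p = 0.00028). The count of 22 risen members ranged from 19 to 24 over the alternatives and that of 15 class I members from 13 to 16. Of the leukocyte markers, Ptprc, Cd68 and Csf1r, none was called and none exceeded 21.0 normalized counts.

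**Figure D4:**
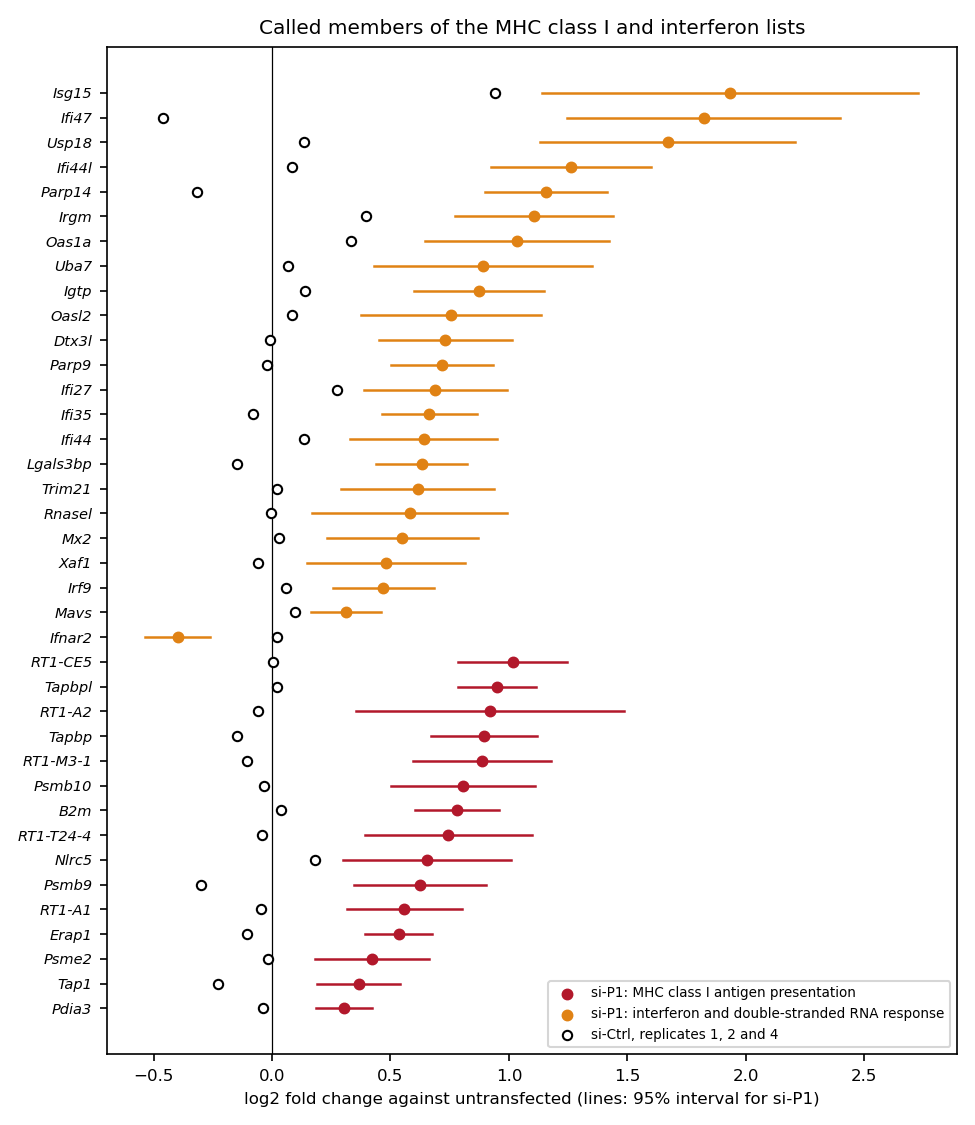
Log2 fold change against untransfected cells (x axis) of the members of the MHC class I (red) and interferon (orange) lists called in si-P1 cells, 1 gene per row, with 95% intervals as lines. Open circles give si-Ctrl (replicates 1, 2 and 4) for the same genes; nearly all si-P1 points lie right of 0 (Ifnar2 is the exception) while most si-Ctrl points lie close to 0.

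Promoters of these genes are shown because the members moved together and because a known element can be looked for in them. The core of the interferon-stimulated response element, searched on both strands as GAAA, any 2 bases and GAAA in the 300 bases from 250 before to 50 after each gene start in RefSeq (GRCr8), occurred in 1034 of 27457 promoters (3.77%). It occurred in 21 of the 37 promoters of the interferon list (56.8%) and in 8 of the 17 of the class I list (47.1%). Among the members called in si-P1 cells that have a promoter in the table, 12 of 19 and 5 of 12 held it. A match is a description and shows no binding. The promoters of Parp14 (chr11:78407884-78408183, plus strand), Irgm (chr10:33742529-33742828, minus strand), B2m (chr3:129549080-129549379, plus strand), Psmb10 (chr19:50743243-50743542, minus strand) and Tapbp (chr20:4967828-4968127, minus strand) follow, 5′ to 3′ and with the element in capitals. That of Eif2ak2 (chr6:21940904-21941203, plus strand) is added because it holds the element although the gene was not called.
Parp14: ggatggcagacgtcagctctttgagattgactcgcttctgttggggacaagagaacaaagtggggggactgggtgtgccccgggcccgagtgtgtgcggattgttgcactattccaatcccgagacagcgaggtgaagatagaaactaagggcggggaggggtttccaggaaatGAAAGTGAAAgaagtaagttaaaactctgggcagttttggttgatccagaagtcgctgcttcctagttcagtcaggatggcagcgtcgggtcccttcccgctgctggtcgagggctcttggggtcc
Irgm: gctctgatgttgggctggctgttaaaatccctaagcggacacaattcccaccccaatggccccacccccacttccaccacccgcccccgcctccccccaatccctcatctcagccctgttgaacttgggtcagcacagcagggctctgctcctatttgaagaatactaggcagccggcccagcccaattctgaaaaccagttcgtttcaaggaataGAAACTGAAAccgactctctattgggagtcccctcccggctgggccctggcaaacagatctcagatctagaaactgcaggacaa
B2m: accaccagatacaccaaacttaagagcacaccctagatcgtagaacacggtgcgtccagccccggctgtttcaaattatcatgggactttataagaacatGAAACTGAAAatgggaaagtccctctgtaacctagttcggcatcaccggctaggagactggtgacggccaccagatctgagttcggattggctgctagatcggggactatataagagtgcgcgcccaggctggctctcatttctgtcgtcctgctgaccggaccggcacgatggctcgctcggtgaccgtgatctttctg
Psmb10: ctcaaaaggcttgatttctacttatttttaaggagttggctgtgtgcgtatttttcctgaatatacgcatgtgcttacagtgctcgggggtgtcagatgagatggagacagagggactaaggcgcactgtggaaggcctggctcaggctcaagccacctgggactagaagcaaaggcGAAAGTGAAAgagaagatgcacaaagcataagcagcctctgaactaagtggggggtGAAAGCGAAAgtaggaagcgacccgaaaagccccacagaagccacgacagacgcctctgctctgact
Tapbp: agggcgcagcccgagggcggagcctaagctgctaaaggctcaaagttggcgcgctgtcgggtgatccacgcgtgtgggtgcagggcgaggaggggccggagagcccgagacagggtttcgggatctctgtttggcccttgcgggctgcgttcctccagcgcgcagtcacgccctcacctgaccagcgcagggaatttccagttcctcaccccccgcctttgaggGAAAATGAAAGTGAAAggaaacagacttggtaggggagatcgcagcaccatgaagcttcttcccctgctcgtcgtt
Eif2ak2: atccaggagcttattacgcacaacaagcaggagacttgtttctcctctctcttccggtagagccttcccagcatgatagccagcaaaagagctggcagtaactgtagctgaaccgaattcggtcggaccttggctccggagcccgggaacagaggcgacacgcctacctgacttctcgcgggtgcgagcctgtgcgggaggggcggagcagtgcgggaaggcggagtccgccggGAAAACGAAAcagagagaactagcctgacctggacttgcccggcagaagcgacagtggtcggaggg
Psmb10 held the element at 2 separate places, and in Tapbp 2 matches overlapped.

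Across the 34 gene lists examined, the share of members called varied widely around the 18.1% of all genes. Lists near that share included matrix and integrin (19.05%), NF-κB (19.35%), YAP and TAZ (18.18%), glycolysis (17.86%), immediate early (17.65%) and TGF-β genes (16.67%). Sterol synthesis (16.22%), iron (15.62%), p53 target (14.81%), cell cycle (14.58%) and oxidative stress genes (13.64%) were below it. Non-endocrine markers (20%), RNA interference (20.83%), lipid uptake (21.62%) and S100 and annexin genes (23.53%) were slightly above it. Ribosomal proteins (4.225%) were far below it, and cytoskeletal (31.03%) and reference genes (33.33%) were above it. The plot of the lists orders them by the balance of rises and falls. Lists at the top, beside the immune ones, concern the lysosome, peptide hormones, genes that β-cells normally keep low, the ER and transport to the Golgi, and those at the bottom the nuclear pore, amino acid supply, RNA interference and immediate early genes.

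**Figure D5:**
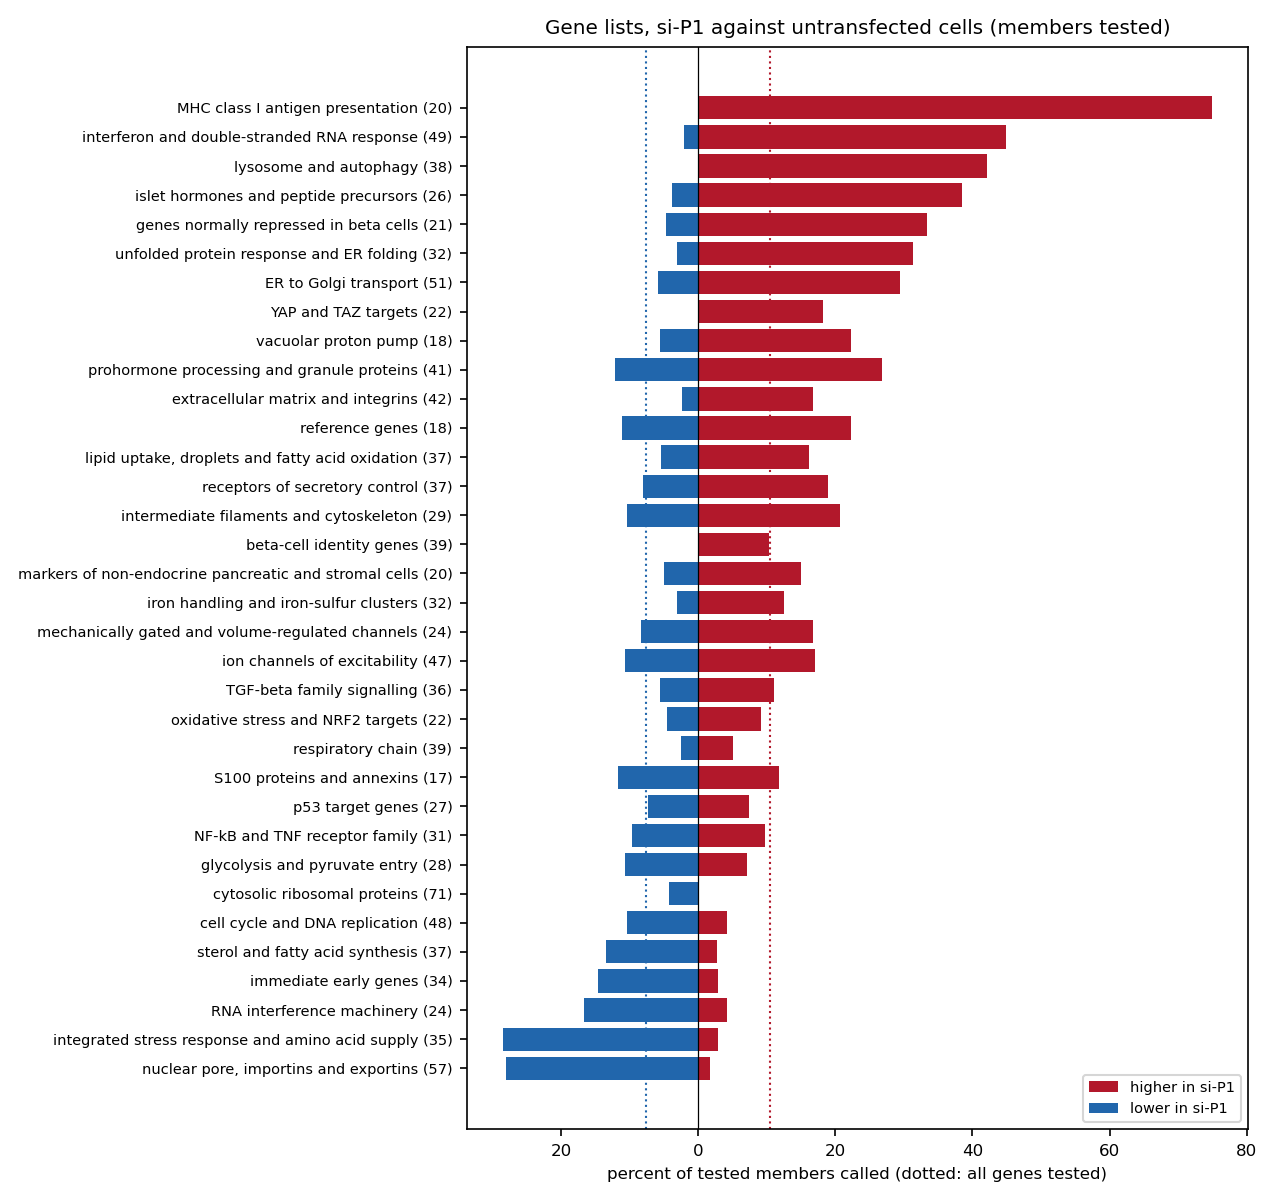
Percentage of tested members of each gene list called higher (red, to the right) or lower (blue, to the left) in si-P1 than in untransfected cells, with the number tested in brackets; dotted lines mark 10.4% and 7.67%, the shares over all genes tested. The MHC class I list (15 of 20 higher) is at the top and the nuclear pore list (16 of 57 lower) at the bottom.

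Part of the peptide hormones and granule proteins rose. Of 26 hormone and peptide precursors tested, 10 rose, 1 fell and 15 were not called (42.3% called, against 18.1% of all genes). The median log2 fold change was 0.42. The 1 that fell, the granin-like Scg5, did so at the threshold (limma adjusted p = 0.044) and was not called with edgeR, without any one si-P1 replicate or without untransfected replicate 2, 3 or 4. Beside Cartpt and Gast, Tac1, the precursor of substance P, had 298, 428, 442 and 494 normalized counts in the si-P1 libraries, against 141, 168, 191 and 154 in the untransfected ones (log2 fold change 1.33, SE 0.21, limma adjusted p = 0.00028). Cck, the precursor of cholecystokinin, which shares its active end with gastrin, had 2016, 1545, 2607 and 1732 normalized counts in si-P1 cells and 1054, 782, 1237 and 824 in untransfected cells (log2 fold change 1.02, SE 0.24, limma adjusted p = 0.0055). Scg2, a granin that helps to form granules, had 64148, 53700.1, 63809 and 56935 normalized counts with si-P1, against 39809, 37600.0, 41293 and 32137 in untransfected cells (log2 fold change 0.66, SE 0.09, limma adjusted p = 5.7e-05). No group overlapped in these 3 genes. Iapp, which encodes the amyloid peptide released with insulin, had 59123, 52715, 58075 and 52199 normalized counts in the si-P1 libraries, against 40329, 42123, 47148 and 39070.2 in the untransfected ones (log2 fold change 0.40, SE 0.09, limma adjusted p = 0.0029), and the granins Scg3 and Vgf rose by 0.44 and 0.40. Chga, which encodes chromogranin A, had 465049, 424959, 519640.2 and 485474 normalized counts in si-P1 cells and 426253, 442116, 457848 and 433316 in untransfected cells and was not called (log2 fold change 0.10, SE 0.12, limma adjusted p = 0.63).

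Insulin transcripts gave a divided picture. Ins1 had 156093, 108739, 158489.9 and 111346 normalized counts with si-P1, against 85837, 72907, 91334 and 57283 in untransfected cells (log2 fold change 0.80, SE 0.23, limma adjusted p = 0.021), without overlap between groups and with si-Ctrl at 95058, 72726 and 58769. Its adjusted p exceeded 0.05 without si-P1 replicate 1 (0.0647) or 3 (0.0741) and without untransfected replicate 2 (0.0506) or 4 (0.0766). Ins2 had 3276, 2558, 3165 and 2653 normalized counts in the si-P1 libraries, against 2849, 2738, 3081 and 2315 in the untransfected ones and its groups overlapped (log2 fold change 0.08, SE 0.16, limma adjusted p = 0.77). The rat insulin genes are near-identical, so reads of one may have been counted for the other. The line also carries a human proinsulin transgene and reads were mapped to the rat genome. Whether any of its reads were counted for Ins1 or Ins2 was not tested.

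Of 41 genes for prohormone processing and granule release, 11 rose, 5 fell and 25 were not called. That is 39.0% called, against 18.1% of all genes, with a median of 0.15. Pam, the enzyme that amidates peptides such as gastrin and cholecystokinin, had 9223, 6958, 10373 and 7804 normalized counts in si-P1 cells and 4088, 3671, 4438 and 2733 in untransfected cells (log2 fold change 1.21, SE 0.17, limma adjusted p = 8.6e-05). Sv2a, a vesicle protein, had 2328, 2139, 2293 and 2285 normalized counts with si-P1, against 1426, 1757, 1409 and 1494 in untransfected cells (log2 fold change 0.58, SE 0.09, limma adjusted p = 0.00012), and Snap25 and Rab27a, which act in granule docking and fusion, rose by 0.52 and 0.49. The members that fell were mostly synaptotagmins, the calcium sensors of exocytosis and their relatives. Syt4 had 1131, 1301, 1209 and 1256 normalized counts in the si-P1 libraries, against 1913, 2267, 2437 and 2276 in the untransfected ones (log2 fold change -0.86, SE 0.10, limma adjusted p = 9.8e-06), and Syt9 fell by 0.61 (not called without si-P1 replicate 3) and Syt7 by 0.56 on the log2 scale, although Syt7 sat at the threshold (limma adjusted p = 0.049) and lost its call in most alternatives. The count of 5 falls dropped to between 2 and 3 when si-P1 replicate 1, 2, 3 or 4 or untransfected replicate 2, 3 or 4 was left out.

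Few β-cell identity genes were called, and the share that rose was near that of all genes. Of 39 tested, 4 rose (10.3% of the list, against 10.4% of all genes) and 0 fell (against 7.67% of all genes). The count of 4 was not stable, with 1 left without si-P1 replicate 1 or 3 and 2 without untransfected replicate 2 or 4. There were 8 rises and 2 falls without si-Ctrl replicate 3, and 11 and 3 with a replicate block. Mnx1, a homeobox factor of β-cells, had 1000.0, 805, 1091 and 902 normalized counts in si-P1 cells and 638, 597, 719 and 673 in untransfected cells (log2 fold change 0.53, SE 0.13, limma adjusted p = 0.0077). Pdx1, a master regulator of the insulin gene, had 4387, 3904, 4811 and 4029.9 normalized counts with si-P1, against 3425, 2873, 3463 and 3139.7 in untransfected cells (log2 fold change 0.41, SE 0.13, limma adjusted p = 0.031), a call lost without any one of these 4 libraries. Slc2a2, the glucose transporter, and Kcnj11 and Abcc8, the subunits of the ATP-sensitive potassium channel, were at 0.33, 0.41 and 0.26 and were not called (limma adjusted p = 0.053, 0.14 and 0.29). These non-calls depended on the fit. Slc2a2 passed without si-Ctrl replicate 3 (limma adjusted p = 0.0146), in the 8 libraries alone (0.0337) and with DESeq2 (DESeq2 adjusted p = 0.0371), among others. With a replicate block Slc2a2, Kcnj11 and Abcc8 passed (limma adjusted p = 0.0132, 4.1e-05 and 0.00043). Of 21 genes that β-cells normally keep low, 7 rose and 1 fell (38.1% called, against 18.1% of all genes). Cxcl12, a chemokine, had 201, 204, 279.9 and 243 normalized counts in the si-P1 libraries, against 117, 97.2, 139.9 and 124 in the untransfected ones (log2 fold change 0.95, SE 0.18, limma adjusted p = 0.00093), and Pdgfra, a growth factor receptor also listed as a fibroblast marker, had 266, 258, 278 and 277 normalized counts in si-P1 cells and 175, 140.1, 157 and 101 in untransfected cells (log2 fold change 0.94, SE 0.18, limma adjusted p = 0.00097).

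Some receptors that adjust secretion rose and a few fell. Of 37 tested, 7 rose and 3 fell (27.0% called, against 18.1% of all genes), and 3 rose without si-P1 replicate 3. The share that fell was near the 7.67% of all genes called lower. Crhr1, a receptor for corticotropin-releasing hormone and urocortins that raises cyclic AMP, had 1778, 1468, 1590.2 and 1706 normalized counts with si-P1, against 795, 839.9, 742 and 797 in untransfected cells (log2 fold change 1.04, SE 0.08, limma adjusted p = 1.2e-07). The groups were far apart and si-Ctrl had 953, 811 and 767. Cckar, the cholecystokinin receptor, had 189, 88.9, 211 and 108 normalized counts in the si-P1 libraries, against 69.6, 46.5, 76.1 and 35.3 in the untransfected ones (log2 fold change 1.35, SE 0.32, limma adjusted p = 0.0053), while Cckbr, the receptor that also binds gastrin, stayed under 6 normalized counts. Ramp1, which pairs with the calcitonin-like receptor to bind CGRP, had 28.9, 30.2, 26.7 and 48.4 normalized counts in si-P1 cells and 62.8, 74.3, 78.3 and 130.4 in untransfected cells (log2 fold change -1.32, SE 0.27, limma adjusted p = 0.0022), and that receptor, Calcrl, had 29.7, 49.8, 32.4 and 43.1 normalized counts with si-P1, against 96.8, 96.0, 71.6 and 100.1 in untransfected cells (log2 fold change -1.23, SE 0.26, limma adjusted p = 0.0025). Both subunits of the CGRP receptor were thus lower, at low abundance. Ramp3, which makes the same receptor bind adrenomedullin, rose by 1.26, with at most 36.2 normalized counts in si-P1 cells, and lost its call without si-P1 replicate 3 or untransfected replicate 1.

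Lysosomal genes that changed all rose. Of 38 lysosome and autophagy genes tested, 16 rose and 0 fell (42.1% called, against 18.1% of all genes). The median was 0.24, and between 12 and 25 rose over the alternatives. Neu1, a sialidase, had 2335, 2245, 2508 and 2303 normalized counts in the si-P1 libraries, against 1489, 1489, 1513 and 1265 in the untransfected ones (log2 fold change 0.71, SE 0.08, limma adjusted p = 6.7e-06). Gusb, β-glucuronidase, had 3707, 4057, 3656 and 3860.3 normalized counts in si-P1 cells and 2329, 2779, 2421 and 2495 in untransfected cells (log2 fold change 0.61, SE 0.08, limma adjusted p = 3.6e-05). Ctsl, the protease cathepsin L, had 6889, 6382, 6801 and 6494 normalized counts with si-P1, against 4667, 4556, 5096 and 4259.5 in untransfected cells (log2 fold change 0.52, SE 0.07, limma adjusted p = 5.0e-05). In each of these enzymes all 4 si-P1 values exceeded all 4 untransfected values and si-Ctrl lay near the untransfected mean. Smaller rises were seen in Ctsd (0.44), Ctsb (0.34), Smpd1 (0.47), Gla (0.44), Asah1 (0.42), Npc2 (0.41), Psap (0.36) and Lamp2 (0.34), which encode acid hydrolases, a cholesterol carrier, a lipid-binding activator and a membrane protein of lysosomes. Tfeb, a transcription factor that drives lysosomal genes, was at 0.00 (limma adjusted p = 0.99). The element TCACGTGA, which such factors bind, was found in 3 of 30 promoters of the list and in 0.867% of all promoters, but in 1 of the 12 promoters of called members.

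The proton pump that acidifies lysosomes and granules was mixed. Of 18 subunits tested 4 rose and 1 fell (27.8% called, against 18.1% of all genes). The rises were 2 without si-P1 replicate 3 or untransfected replicate 1 and 8 without si-Ctrl replicate 3. Atp6v0d1, a subunit of the membrane sector, had 5864, 5826, 5559 and 5168 normalized counts in the si-P1 libraries, against 8476, 8348, 8949.7 and 8581 in the untransfected ones (log2 fold change -0.62, SE 0.08, limma adjusted p = 2.3e-05). Atp6v0e1, of the same sector, had 6600.4, 5977, 6709 and 6081 normalized counts in si-P1 cells and 4732, 4476, 4999.8 and 4599 in untransfected cells (log2 fold change 0.43, SE 0.10, limma adjusted p = 0.0051), the opposite direction. Atp6ap1, an accessory subunit, had 13948, 12528, 13536 and 12684 normalized counts with si-P1, against 9756, 9812, 10202 and 8723 in untransfected cells (log2 fold change 0.45, SE 0.06, limma adjusted p = 5.0e-05).

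Some genes for folding in the ER and for export from it rose by small amounts. Of 32 members of the unfolded protein response and ER folding list 10 rose, 1 fell and 21 were not called. Of 51 genes of ER to Golgi transport 15 rose, 3 fell and 33 were not called. The shares called were 34.4% and 35.3%, against 18.1% of all genes, with medians of 0.17 and 0.13. Without si-Ctrl replicate 3 the rises of the first list were 16 and the falls of the second 7. Wfs1, the ER membrane protein lost in Wolfram syndrome, had 2662, 2268, 2798 and 2570.4 normalized counts in the si-P1 libraries, against 1735, 1737, 1708 and 1586 in the untransfected ones (log2 fold change 0.60, SE 0.08, limma adjusted p = 2.9e-05). Pdia4, a disulfide isomerase, had 15490.4, 16147, 16412 and 15988 normalized counts in si-P1 cells and 12323, 13026, 13509 and 13114 in untransfected cells (log2 fold change 0.30, SE 0.05, limma adjusted p = 0.00035), and its si-Ctrl values of 11235, 11735 and 10923 were below both groups. Hspa5, the chaperone BiP, was at 0.12 and was not called (limma adjusted p = 0.17), and the 1 member that fell, Ern1, which senses unfolded proteins, did so at the threshold and lost its call whichever library was left out (log2 fold change -0.50, SE 0.17, limma adjusted p = 0.048). In transport, Kdelr3, a receptor that returns ER proteins from the Golgi, had 1001, 1004, 879.8 and 921 normalized counts with si-P1, against 629.9, 619, 623 and 618 in untransfected cells (log2 fold change 0.61, SE 0.08, limma adjusted p = 5.7e-05). Tmed10, a cargo receptor, had 7333, 7306, 7593 and 7707 normalized counts in the si-P1 libraries, against 5619.8, 6070.0, 5969 and 5769.7 in the untransfected ones (log2 fold change 0.35, SE 0.05, limma adjusted p = 8.3e-05). Sec31a, an outer coat subunit of COPII vesicles, went the other way with 4051, 4425, 4216 and 4418 normalized counts in si-P1 cells and 5907, 7026, 6399 and 6792 in untransfected cells (log2 fold change -0.61, SE 0.08, limma adjusted p = 5.7e-05), while Sec23a, of the inner coat, rose by 0.70.

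Some genes of amino acid supply and the integrated stress response fell. This response slows translation when amino acids run short or proteins misfold and raises genes for amino acid uptake, synthesis and tRNA charging through the factor ATF4. Of 35 tested, 1 rose and 10 fell, with a median of -0.34, against 7.67% of all genes called lower. The falls numbered 5 without si-P1 replicate 1 or untransfected replicate 3, 6 without si-P1 replicate 3 or untransfected replicate 2 or 4, 13 with si-P1 replicate 2 left out and 14 with si-Ctrl replicate 3 left out. Slc7a5, a transporter of large neutral amino acids, had 7064, 9598, 7277 and 8792 normalized counts with si-P1, against 11712, 14441, 12609 and 14034 in untransfected cells (log2 fold change -0.70, SE 0.12, limma adjusted p = 0.00035). Aars, which charges alanine onto its tRNA, had 5075, 7015, 5683 and 6714 normalized counts in the si-P1 libraries, against 8942, 10202, 9075 and 10319 in the untransfected ones (log2 fold change -0.66, SE 0.12, limma adjusted p = 0.00052). In both, si-P1 replicates 1 and 3 were the lowest of all 8 libraries and no values overlapped. Trib3, a pseudokinase target of the response, had 1043, 2803, 1373 and 2234 normalized counts in si-P1 cells and 2818, 3640.3, 3047 and 3247 in untransfected cells (log2 fold change -0.87, SE 0.28, limma adjusted p = 0.032), with the same split among the si-P1 libraries. Its call was lost without si-P1 replicate 1 or 3 or untransfected replicate 2, 3 or 4 (limma adjusted p from 0.0565 to 0.126) and with edgeR (0.0532). Atf4 and Ddit3, which encodes CHOP, were at -0.40 and -0.78 and were not called (limma adjusted p = 0.096 and 0.073). With a replicate block both passed (limma adjusted p = 0.0017 and 0.00017), and 21 members of the list fell. The si-Ctrl median of the list was 0.01.

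Immediate early genes, the first to answer calcium and growth signals, had 1 rise and 5 falls among 34 tested, and the falls numbered 2 without untransfected replicate 4 and 3 without si-P1 replicate 1, 2 or 3 or untransfected replicate 1. Jun, a subunit of the factor AP-1, had 209, 400.0, 295 and 400.4 normalized counts with si-P1, against 521, 719, 683 and 723 in untransfected cells (log2 fold change -1.05, SE 0.29, limma adjusted p = 0.014), and lost its call without si-P1 replicate 1 (0.0587). Fos, its partner, and Egr1 were at -0.44 and -0.53 with wide spread and were not called (limma adjusted p = 0.53 and 0.39). Egr1 passed with a replicate block (limma adjusted p = 0.0066).

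Several nuclear transport genes fell by small amounts. Of 57 nuclear pore proteins, importins and exportins tested, 16 fell and 1 rose (29.8% called, against 18.1% of all genes). The median was -0.22, and 4 of the 57 estimates were above 0. Ipo5, an importin, had 4670.1, 5262, 4487 and 5142 normalized counts in the si-P1 libraries, against 7116, 7745, 7196 and 8225 in the untransfected ones (log2 fold change -0.63, SE 0.10, limma adjusted p = 0.00016). Ipo7, another importin, had 11807, 12669.9, 11006 and 11473 normalized counts in si-P1 cells and 17007, 17333, 17826 and 16432 in untransfected cells (log2 fold change -0.55, SE 0.13, limma adjusted p = 0.0060). Xpo6, the exportin of actin, had 3318, 3043, 3224 and 3263 normalized counts with si-P1, against 3883, 3649, 3715 and 3780.0 in untransfected cells (log2 fold change -0.23, SE 0.04, limma adjusted p = 0.0015). The groups were apart in these 3 carriers and si-Ctrl was at the untransfected level. Nup210, a membrane-spanning pore protein, was the member that rose, with 8303, 7458, 7659 and 7858 normalized counts in the si-P1 libraries, against 5942, 6502, 5847 and 5842 in the untransfected ones (log2 fold change 0.37, SE 0.07, limma adjusted p = 0.00077). The count of 16 rested on single libraries, with 4 without untransfected replicate 4, 5 without si-P1 replicate 3, 7 without untransfected replicate 2, 10 without si-P1 replicate 1 and 32 without si-Ctrl replicate 3.

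Ribosomal proteins lay slightly lower without many calls. Of 71 proteins of the cytosolic ribosome tested, 0 rose and 3 fell, and 4 of the 71 estimates were above 0, with a median of -0.13 in si-P1 and -0.09 in si-Ctrl. Rps3a had 50968, 56201, 49335 and 51059.9 normalized counts in si-P1 cells and 65665, 64298, 73117 and 66975 in untransfected cells (log2 fold change -0.38, SE 0.10, limma adjusted p = 0.011). The number that fell was 25 in the fit without si-Ctrl replicate 3 and 17 with quantile normalization, and 1 without si-P1 replicate 1, 3 or 4 or untransfected replicate 1 or 3. Pseudogene copies of these genes make their counts uncertain.

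The cell cycle list changed in few members. Of 48 tested, 2 rose and 5 fell, with 10 falls without si-Ctrl replicate 3 and 0 rises without si-P1 replicate 3 or 4 or untransfected replicate 1, 2 or 3. Top2a, the topoisomerase that untangles chromosomes before division, had 4172, 4773, 4129 and 5411 normalized counts with si-P1, against 8903, 10961, 9077 and 12604 in untransfected cells (log2 fold change -1.16, SE 0.13, limma adjusted p = 5.1e-06), with si-Ctrl at 9951, 10631 and 12207. Mki67, the Ki-67 proliferation antigen, which usually moves with Top2a, had 5475, 7519.8, 6972 and 9758 normalized counts in the si-P1 libraries, against 6995, 9854, 6829 and 10208 in the untransfected ones and was not called (log2 fold change -0.19, SE 0.22, limma adjusted p = 0.60). Cdc25a, a phosphatase that starts DNA replication, had 736, 754, 750.3 and 649 normalized counts in si-P1 cells and 1000.0, 1129, 1002 and 1153 in untransfected cells (log2 fold change -0.57, SE 0.07, limma adjusted p = 9.2e-06), and Cdk2 and Mcm6, of the same step, fell by 0.32 and 0.30. Of 27 p53 target genes 2 rose and 2 fell (0 without untransfected replicate 4).

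Among 24 genes of the RNA interference machinery, which loads and uses small RNAs such as siRNAs, 1 rose and 4 fell. The falls were 2 without si-P1 replicate 3 or 4 or untransfected replicate 2, 3 or 4, and 9 without si-Ctrl replicate 3. Prkra, a partner of Dicer and activator of PKR, had 808, 942, 779 and 888 normalized counts with si-P1, against 1263, 1269.8, 1250.2 and 1354 in untransfected cells (log2 fold change -0.59, SE 0.06, limma adjusted p = 4.1e-06). All si-P1 values of Prkra lay below all untransfected values. Mov10, an RNA helicase, rose by 0.59.

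Among other stretch-activated and volume-regulated channels some rose and 1 fell. Of 24 on the list with Piezo1, 4 rose and 2 fell (25.0%, against 18.1% of all genes), Piezo1 being one of the falls, and without si-Ctrl replicate 3 the list had 6 rises and 4 falls. Kcnk10, the stretch-activated potassium channel TREK-2, had 174, 132, 150.4 and 139 normalized counts in the si-P1 libraries, against 86.6, 78.5, 87.3 and 71.5 in the untransfected ones (log2 fold change 0.87, SE 0.15, limma adjusted p = 0.00058). Kcnk2, its relative TREK-1, had 252, 299, 362 and 356 normalized counts in si-P1 cells and 205, 214, 184 and 172 in untransfected cells (log2 fold change 0.70, SE 0.13, limma adjusted p = 0.00079). Groups were apart in both TREK channels. Tmem63b, a channel of the OSCA family, rose by 0.20 and its relative Tmem63c fell by 0.34 (limma adjusted p = 0.0045 and 0.0029), whereas Tmem63a was at 0.08 and not called. Ano6, a lipid scramblase, rose by 0.44 at the threshold (limma adjusted p = 0.045), a call lost whichever of the 8 libraries was left out. Lrrc8a, the obligatory subunit of the volume-regulated anion channel, had 562, 535, 537 and 555 normalized counts with si-P1, against 669, 664, 626 and 595 in untransfected cells and was not called (log2 fold change -0.22, SE 0.10, limma adjusted p = 0.14), though it passed in a fit of the 8 libraries alone (limma adjusted p = 0.0256). Lrrc8b, Lrrc8c, Lrrc8d and Lrrc8e, its partners, and Trpm7, Trpc1, Pkd1 and Pkd2 were not called either, with estimates between -0.66 and 0.21. Clcn3 and Tmem87a were at -0.40 and 0.24 and were not called. Both passed in the 8 libraries alone (limma adjusted p = 0.0013 and 0.016) and without si-Ctrl replicate 3 (limma adjusted p = 9.1e-05 and 0.0030). Trpv2, Trpc6, Tmc7 and Ano1 stayed under 21.0 normalized counts.

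Voltage-gated and background channels that set the excitability of β-cells gave 8 rises and 5 falls among 47. Of the list 27.7% was called, against 18.1% of all genes. The rises were 5 without si-P1 replicate 1 or 3 or untransfected replicate 3, and the falls 3 without si-P1 replicate 3 or 4 or untransfected replicate 1 and 10 without si-Ctrl replicate 3. Kcnq1, a slow potassium channel, had 110.4, 101, 109 and 101 normalized counts in the si-P1 libraries, against 47.5, 45.9, 42.5 and 38.7 in the untransfected ones (log2 fold change 1.254, SE 0.13, limma adjusted p = 3.9e-06). Kcnk16, the islet potassium channel TALK-1, had 7247, 4341, 6902 and 4934 normalized counts in si-P1 cells and 3413, 2687, 3325 and 2823 in untransfected cells (log2 fold change 0.91, SE 0.20, limma adjusted p = 0.0030). Cacnb3, an auxiliary subunit of calcium channels, had 12687, 14243, 12967 and 13121 normalized counts with si-P1, against 16515, 17824, 17144 and 17686 in untransfected cells (log2 fold change -0.38, SE 0.07, limma adjusted p = 0.00059). Values of these 3 genes did not overlap. Cacna1d, a pore subunit of the L-type calcium channel, was at 0.14 and was not called (limma adjusted p = 0.57).

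Lipid and carbon metabolism showed scattered changes. Of 37 sterol and fatty acid synthesis genes 1 rose and 5 fell, with 3 falls without si-P1 replicate 1 or 3 or untransfected replicate 2 and 2 without untransfected replicate 4. Acly, which makes cytosolic acetyl-CoA, had 69034, 62642, 63795 and 63765 normalized counts in the si-P1 libraries, against 82207, 87343, 82616 and 98126 in the untransfected ones (log2 fold change -0.43, SE 0.09, limma adjusted p = 0.0016), and the 1 member that rose, the desaturase Fads1, had 7899, 9196, 7599 and 10015 normalized counts in si-P1 cells and 4798, 6740.2, 5089 and 6656 in untransfected cells (log2 fold change 0.58, SE 0.12, limma adjusted p = 0.0019) and a position of 0.54. The call of Acly was lost with quantile normalization (0.0827). Of 37 genes of lipid uptake, droplets and fatty acid oxidation 6 rose and 2 fell, among them Acadm, a dehydrogenase of medium-chain fatty acids, which rose by 0.41 with a position of 0.69. Glycolysis, with a list median of -0.02 that turned positive with edgeR and DESeq2, had 2 rises and 3 falls among 28 (3 and 5 without si-Ctrl replicate 3), with Pfkl, a phosphofructokinase, falling by 0.31 and Ldhb rising as given above. The respiratory chain had 2 rises and 1 fall among 39 (7.69% called). Its rises were 11 without si-Ctrl replicate 3 and 0 without si-P1 replicate 3 or 4 or untransfected replicate 1 or 2. Oxidative stress genes had 2 rises and 1 fall among 22, and 5 rises and 3 falls without si-Ctrl replicate 3. Only 1 rose without any one of si-P1 replicates 1, 2 and 3 and untransfected replicates 2, 3 and 4. Cat, the peroxide-degrading catalase, had 1341, 1353, 1592 and 1385 normalized counts with si-P1, against 952, 887, 988 and 876 in untransfected cells (log2 fold change 0.61, SE 0.11, limma adjusted p = 0.00052), and Sod2, the mitochondrial superoxide dismutase, had 3809.5, 4092, 3708 and 3741 normalized counts in the si-P1 libraries, against 4762, 5018, 4921 and 5055 in the untransfected ones (log2 fold change -0.36, SE 0.06, limma adjusted p = 0.00032). Their directions were opposite and neither overlapped. Of 32 genes of iron handling 4 rose, Tfrc among them, and 1 fell, with 2 rises without si-P1 replicate 3 or untransfected replicate 2 and 6 rises and 4 falls without si-Ctrl replicate 3.

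Some matrix, adhesion and filament genes rose. Of 42 matrix and integrin genes 7 rose and 1 fell (19.05% called, against 18.1% of all genes). Fn1, fibronectin, had 49253, 37194, 45382 and 39482 normalized counts in si-P1 cells and 28170.4, 25839, 27503 and 18560.0 in untransfected cells (log2 fold change 0.79, SE 0.16, limma adjusted p = 0.0016). Itga6, a laminin receptor subunit, had 1629, 1772, 1859 and 2081 normalized counts with si-P1, against 1339.6, 1263, 1316 and 1225 in untransfected cells (log2 fold change 0.51, SE 0.12, limma adjusted p = 0.0073). Of 29 cytoskeletal genes 6 rose and 3 fell (1 without si-P1 replicate 1 or 3 or untransfected replicate 2), with Krt18 and Krt7, keratins of simple epithelia, rising by 0.73 and 0.82 beside the neurofilaments. Tgfb2, a growth factor counted among the YAP and TAZ targets and the TGF-β family genes, had 14722, 12341, 12712 and 12528 normalized counts in the si-P1 libraries, against 9902, 7656, 8774 and 6042 in the untransfected ones (log2 fold change 0.71, SE 0.16, limma adjusted p = 0.0041). In these genes the groups did not overlap. Of 22 YAP and TAZ targets, genes induced when cells are stretched or spread, 4 rose and 0 fell, with 2 rises without si-P1 replicate 2 or 3 or untransfected replicate 4. Of 36 TGF-β family genes 4 rose and 2 fell (10 without si-Ctrl replicate 3). The shares called of the YAP and TAZ and the TGF-β lists, 18.18% and 16.67%, were near that of all genes. In the remaining lists the NF-κB and TNF receptor family gave 3 rises and 3 falls among 31, S100 proteins and annexins 2 and 2 among 17 (0 rises without si-P1 replicate 3), and markers of non-endocrine pancreatic and stromal cells 3 and 1 among 20. Of 18 genes often used as references 4 rose and 2 fell (5 without si-Ctrl replicate 3), with Ywhaz rising by 0.32, and Actb and Gapdh at 0.00 and 0.14 (limma adjusted p = 0.98 and 0.35).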

How the data were processed

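The table used here holds deposited normalized counts per gene, a scaled signal. Per the methods and the submitters' processing notes, the authors mapped stranded poly(A) reads to Rnor_6.0, quantified them with Salmon 0.14.0 and ran DESeq2 1.25.10. How the values were scaled is not given in the sources used here. Within each library they were whole multiples of 1 step (100% within 0.001), so whole reads were recovered for depth and for the count models. The main test was limma 3.58.1 (R 4.3.3) with a variance trend on log2(normalized count + 1), with 5 group means over 20 libraries, genes non-zero in at least 10 libraries and Benjamini-Hochberg adjustment over all genes tested, at 0.05. Fold changes on this scale understate those of low genes. The scripts were tested on simulated data. Alternatives were other pseudocounts, filters and scalings, edgeR 4.0.16, DESeq2 1.42.0, a replicate block, fewer libraries and leaving out each library.

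Genes were named by a rule: among called genes with a mean of at least 100 and no overlap, the 12 largest rises and 12 largest falls and the 4 largest of each per class of si-Ctrl place, then the 4 called members of smallest adjusted p per list, and always Piezo1, Piezo2, Ins1, Ins2 and the mechanically gated and volume-regulated channels. Not every gene that met the rule is given in the text. Another 69 genes, the list members given only by a fold change, E2f2 and the low genes among the other observations were chosen after their values were seen. Members and lists were chosen with earlier results of these data known. The 34 lists held 1295 entries, of which 1246 matched, 13 of them by a synonym. Sequences are from RefSeq (GRCr8), and the motif TCACGTGA was added after the values were seen. That motif was also searched in the proton pump list, where 2 of 14 promoters held it, 2 of 5 among called members. A C/EBP-ATF response element (TGATG, any base, AA) was searched in the integrated stress response list. It was in 4 of 25 promoters (16%), 2 of 8 among called members, and in 3.82% of all promoters.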

Additional observations from a re-analysis of the deposited data

Results flagged for a closer look

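In 14 of the 318 sets of 4 libraries behind the genes named, 1 library stood far from the other 3 by Dixon's criterion, and chance alone gives about 1 in 20. Among si-P1 libraries, replicate 3 had the lowest Piezo1 (105 normalized counts, the others 130.0 to 132) and the highest Tapbp (5222, the others 4262 to 4339). Replicate 1 had the highest Tgfb2 (14722, the others 12341 to 12712) and Lrrc8b (1466, the others 1182 to 1217) and the lowest Hspa5 (44662, the others 47705 to 48061). Replicate 4 had the highest Ramp1 (48.4, the others 26.7 to 30.2) and was the only one with Cckbr (3.36). Among untransfected libraries, replicate 2 was the only one with LOC100910143 (131), had the highest Nup210 (6502, the others 5842 to 5942) and the lowest Actb (55648, the others 61091 to 61490). Replicate 4 had the highest Prok2 (846, the others 598 to 638) and the lowest Neu1 (1265, the others 1489 to 1513). Replicate 3 had the lowest Calcrl (71.6, the others 96.0 to 100.1), and replicate 1 the highest Ifnar2 (730.1, the others 640.0 to 655).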

How the results depend on the processing

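The count of 2857 genes changed depended most on si-Ctrl replicate 3, which is in neither group: 4921 passed without it (2489 higher, 2432 lower) and 4286 with the 8 libraries alone (2089 lower). Leaving out 1 library of the 2 groups gave between 1961 (si-P1 replicate 3 left out) and 2643 (si-P1 replicate 2 left out), with 1136 to 1545 higher and 825 to 1098 lower. Libraries of the 2 groups with the same replicate number were weakly correlated in their deviations from the group means (0.120, 0.041, 0.065 and 0.164). Pairs with different numbers lay between -0.149 and 0.070, and for each si-P1 library the same-number value was the highest. The main test has no replicate block. Adding one gave 4281 genes, 1927 of them lower. The block also called Slc2a2, Kcnj11 and Abcc8 higher and Atf4, Ddit3, Egr1 and Eif2ak2 lower (limma adjusted p at most 0.0132), and gave 11 rises and 3 falls in the β-cell identity list and 21 falls in the integrated stress response list. Other pseudocounts, filters and scalings, limma without the trend, edgeR and DESeq2 gave between 2696 and 3238. No named gene that was called turned its direction, and genes not called were not checked for this. Of the 198 named genes called, 145 kept the call in every setting. The share of called genes with the si-Ctrl mean strictly between the groups was 75.74% with all 4 si-Ctrl libraries and 68.01% with calls made without replicate 3, and that near untransfected 45.64% and 56.57%. The causes were not tested. Genes under about 10 normalized counts gave few reads, and a change in them was detectable only where it was large.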

Other observations

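Below the abundance at which genes were named, some of the largest fold changes belonged to receptors, digestive enzymes and lectins. Lgals5, a galectin, rose by 4.94 on the log2 scale at a mean of 34.7 normalized counts over the 8 libraries, with its si-Ctrl mean at a position of 0.26. Ntsr1, the receptor for neurotensin, rose by 2.71 at a mean of 37.5, and Gper1, a membrane receptor for oestrogen, rose by 2.48 at a mean of 52.6, both with si-Ctrl near untransfected cells (positions 0.08 and -0.0044). Ctrb1, the acinar enzyme chymotrypsinogen, rose by 2.57 at a mean of 65.7 and a position of 0.40, in libraries in which the acinar markers Prss1, Cpa1 and Pnlip were at 0. Calhm1, a voltage-gated channel that releases ATP, fell by 2.45 at a mean of 5.42.

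The 8 libraries differed along a second line that crosses the groups. On a principal component analysis of these libraries over 11698 genes, the first component (48.8% of the variance) separated the si-P1 libraries (14.4 to 28.5) from the untransfected ones (-21.4 to -15.98). The second (17.7%) put replicates 1 and 3 of both groups on one side (12.3 and 3.91 with si-P1, 16.03 and 11.4 untransfected) and replicates 2 and 4 on the other (-11.3 and -9.67 with si-P1, -8.03 and -14.6 untransfected). The labels name no batch, and what the numbers stand for was not tested. Cartpt, Gast and Ins1 were higher and Atf3 lower in replicates 1 and 3 than in replicates 2 and 4 of the same group, in both groups.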
